A study of Mus musculus with 9 samples.

Results

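The genes described here encode 46 secreted proteins of blood plasma: 18 of coagulation and fibrinolysis, 15 of complement, and 13 acute phase proteins and protease inhibitors. They were taken by name, as a list, from the 24419 gene symbols of a count table, not by a threshold on measured values. The table came from RNA sequencing of the liver of male FVB mice kept on a normal diet, with 3 libraries in each of 3 groups. The CTRL mice were 13, 13 and 17 weeks old. MODEL1 combined NFE2L2 G31A with CTNNB1 T41A, in mice aged 18 weeks, and MODEL2 combined NFE2L2 T80K with CTNNB1 T41A, in mice aged 19, 20 and 22 weeks. NFE2L2 encodes NRF2, the transcription factor of the antioxidant response, and CTNNB1 encodes beta-catenin, the effector of canonical Wnt signalling. In both models 20 µg of each of these plasmids in 2 ml of saline was injected hydrodynamically into the tail vein with Sleeping Beauty transposase, which inserts the transgenes into the genome of a fraction of hepatocytes. The design text reports hepatocellular carcinoma in both models and describes a control that received wild-type NFE2L2 with CTNNB1 T41A. The sample labels do not say what the CTRL mice received. Unlike those of the models, the CTRL records name no NFE2L2 or CTNNB1 change, plasmid amount or saline volume. Every CTRL mouse was younger than every model mouse. If the CTRL mice were that control, all groups shared CTNNB1 T41A and the injection and differed in the form of NFE2L2. Otherwise the parts of these 3 cannot be told apart. Either way tumour content cannot be told apart from the injected NFE2L2 form.

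Hepatocytes make and secrete most plasma proteins. In clotting, a chain of zymogens is activated in turn until thrombin cuts fibrinogen into fibrin, which plasmin later dissolves. In complement, the classical, lectin and alternative pathways meet at C3 and end in the membrane attack complex. During the acute phase response, interleukin-6 and interleukin-1 act on hepatocytes through STAT3, NF-kB and C/EBP factors, so that fibrinogen, haptoglobin, hemopexin and serum amyloid A rise while negative acute phase proteins such as fetuin-A decline. The transcription factors HNF1 and HNF4 also bind the promoters of many of these genes.

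The libraries were shallow, with 219504 to 325177 counts each, so that 3 counts corresponded to 9.23 to 13.7 CPM (counts scaled to a common library size). The 46 genes held 8524 counts over the 9 libraries, between 0.272% and 0.495% of each library. Of the 46, 21 passed the filter on low counts and were tested (10 of 18 in coagulation, 4 of 15 in complement, 7 of 13 in the acute phase class). The others had 0 to 71 counts over all 9 libraries, with a median of 25, and Saa1 had 0 counts in every library. All 11 hepatocyte markers were detected. Rn45s, the ribosomal RNA precursor, took between 2.2% and 13.4% of the counts and was highest in MODEL1 replicate 1, CTRL replicate 1 and MODEL1 replicate 3. The strand setting of the counting is not given in the sources used here. Of the symbols placed on mm10, 24.2% share exon bases with a gene on the opposite strand, and these held 79% of all counts. Among the plasma protein genes 8 of 46 do so, and these held 37.2% of their counts. Alb, the albumin gene and a leading hepatocyte transcript, held 783 of the 789059 CTRL counts, whereas Gm30505, a noncoding gene opposite Ahsg, held 79891. The table does not show on which strand reads were counted, so the levels and changes of all 46 genes, those without such a partner included, may come from reads of either strand; this was not tested.

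**Figure D1:**
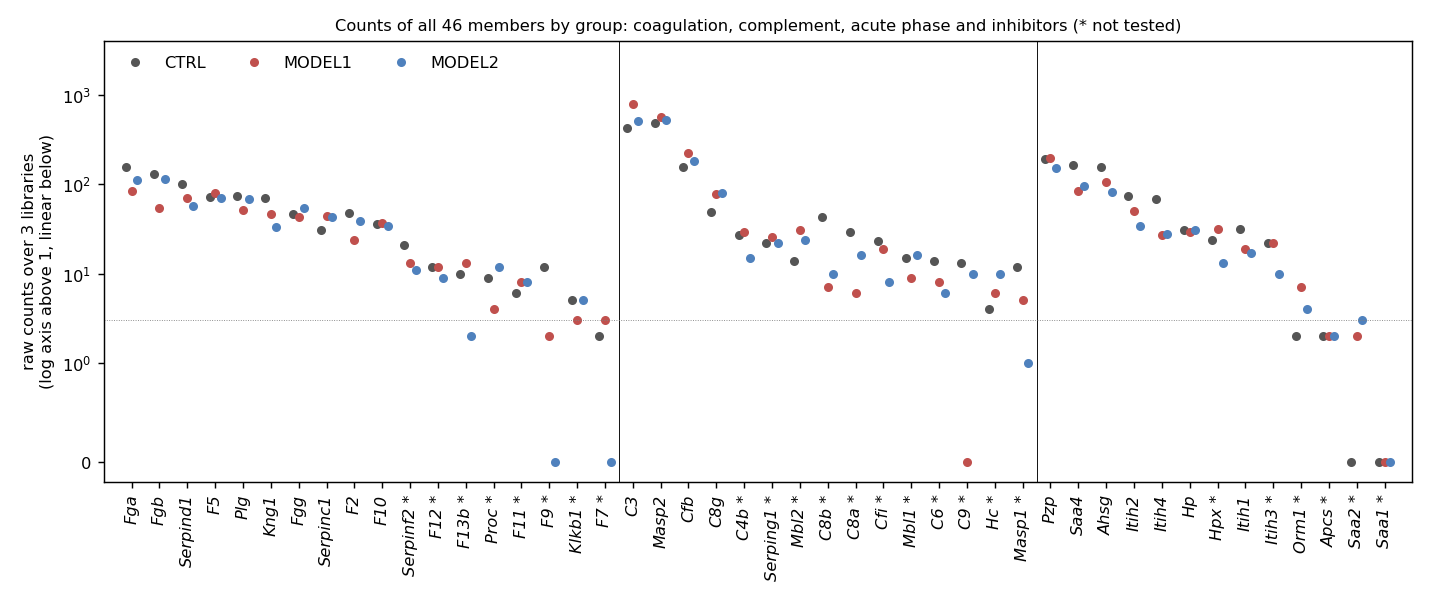
Raw counts of all 46 plasma protein genes, summed over the 3 libraries of each group (vertical axis, logarithmic above 1 and linear below), with genes ordered within class by total count (horizontal axis); vertical lines separate coagulation, complement and acute phase genes, an asterisk marks a gene that was not tested, and the dotted line lies at 3 counts. C3 and Masp2 stand above all others, and 25 genes lie under the filter; the counts are not scaled for depth.

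The upstream sequences of 5 of the genes are shown because they belong to the genes on which the results below turn: Fgb, Itih4 and Saa4, which were lower in MODEL1 than in CTRL, C3, which was higher, and Fgg, the third fibrinogen gene, which passed no test. Each is the 250 bases before the RefSeq start in GRCm38.p6, written 5′ to 3′ on the strand of the gene. Capitals mark matches to the HNF1 core site GTTAAT or to the C/EBP pattern TTNNGCAA on either strand. The windows lie at chr3:83049864-83050113 on the minus strand (Fgb), chr3:83007474-83007723 on the plus strand (Fgg), chr14:30886226-30886475 on the plus strand (Itih4), chr7:46732604-46732853 on the minus strand (Saa4) and chr17:57228137-57228386 on the minus strand (C3).
Fgb: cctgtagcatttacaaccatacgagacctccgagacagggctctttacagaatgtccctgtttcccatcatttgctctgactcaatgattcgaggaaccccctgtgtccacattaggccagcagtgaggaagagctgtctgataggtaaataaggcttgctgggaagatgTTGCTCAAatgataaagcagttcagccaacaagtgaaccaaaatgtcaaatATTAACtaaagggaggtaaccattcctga
Fgg: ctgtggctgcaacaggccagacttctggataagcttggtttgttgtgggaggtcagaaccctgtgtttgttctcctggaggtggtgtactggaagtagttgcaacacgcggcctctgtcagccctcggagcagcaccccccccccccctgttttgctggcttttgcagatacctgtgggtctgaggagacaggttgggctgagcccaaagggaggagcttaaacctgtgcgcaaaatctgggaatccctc
Itih4: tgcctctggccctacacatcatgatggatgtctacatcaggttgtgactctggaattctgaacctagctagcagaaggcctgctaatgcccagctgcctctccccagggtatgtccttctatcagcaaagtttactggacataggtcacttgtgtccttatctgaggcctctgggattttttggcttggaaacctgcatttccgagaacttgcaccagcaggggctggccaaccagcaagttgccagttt
Saa4: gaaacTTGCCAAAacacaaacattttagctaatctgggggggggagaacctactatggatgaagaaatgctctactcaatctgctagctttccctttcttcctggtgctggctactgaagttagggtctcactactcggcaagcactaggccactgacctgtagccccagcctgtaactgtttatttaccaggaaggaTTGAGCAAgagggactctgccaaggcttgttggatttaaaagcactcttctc
C3: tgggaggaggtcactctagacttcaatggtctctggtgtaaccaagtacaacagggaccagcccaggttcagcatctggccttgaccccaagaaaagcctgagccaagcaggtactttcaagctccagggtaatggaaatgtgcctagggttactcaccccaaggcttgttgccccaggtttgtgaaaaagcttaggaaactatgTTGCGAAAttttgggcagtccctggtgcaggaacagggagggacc
The Fgb window held 1 match of each kind, the Saa4 window 2 C/EBP matches, the C3 window 1 C/EBP match, and the Fgg and Itih4 windows neither.

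RefSeq gave such a window for 36 of the 46 genes. The HNF1 core site GTTAAT was present in the windows of 8 genes (22.2%: C8a, C8b, F13b, Fga, Fgb, Hc, Itih1 and Pzp), against 6.43% of all 32851 promoters. The C/EBP pattern TTNNGCAA was present in 13 (36.1%), among them Fga, Fgb, Saa4, Ahsg and C3, against 9.56% of all promoters; the stricter TTGCGCAAT, a subset of it, was present in none, against 0.0487%. The STAT pattern TTCNNNGAA was found in 7 genes (19.4%: Apcs, C8a, F9, Fga, Fgb, Itih4 and Masp2), against 7.02%, and its subset TTCCNGGAA in Fga alone (2.78%), against 0.913%. For the factors that the injected plasmids bear on, the antioxidant response element core TGACNNNGC was in 5 genes (13.9%: Ahsg, Hpx, Itih3, Klkb1 and Serpind1), against 10.2%, and the TCF/LEF core CTTTGA in 3 (8.33%: C8g, Hpx and Serpind1), against 13.8%. The NF-kB consensus site, in a strict and a looser form, was in no window, against 0.14% and 1.41% of all promoters. These shares describe letters in short windows, and members of 1 locus are not independent of each other.

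In MODEL1 the calls within the list went in both directions and were together about as frequent as over all genes tested. Against CTRL, edgeR's quasi-likelihood test called 4 of the 21 tested genes lower (Fga, Fgb, Saa4 and Itih4) and 1 higher (C3) at an adjusted p under 0.05. The C3 call was lost without MODEL1 replicate 2, and Fgg, the third fibrinogen gene, was not called. Over all 2639 genes tested, 11% were called lower and 11.9% higher in this comparison, 22.8% in all. The log2 fold change was below 0 in 17 of the 21 genes, against 50% of all genes tested, with a median of -0.72 against 3e-04 for all genes. This median depended on the fit and on the genes passing its filter. It was -0.167 without MODEL1 replicate 1, -0.284 without replicate 3 and -0.825 without replicate 2. With only the 2 groups compared it was -0.357, and with age as a covariate -0.856. Without the 3 libraries rich in Rn45s, which leaves MODEL1 with replicate 2 alone, it was -0.139. In MODEL2, 2 of the 21 were called lower (Itih4 and Ahsg) and 0 higher, against 4.96% and 8.3% of all genes (13.3% in all). DESeq2 also called 0 higher, and 6 genes had an unadjusted p under 0.05, all of them with lower values. Here 15 of the 21 lay below 0, against 49.9% of all genes, with a median of -0.27 against 0.0011. Between MODEL2 and MODEL1, 0 of the 21 were called higher or lower by edgeR, against 3.87% and 3.41% of all genes (7.28% in all), and 9 lay below 0, against 49.5%. Of these 21, 2 (Fgb and C3) had an unadjusted p under 0.05 and DESeq2 also called 0. Both models were compared with the same 3 CTRL libraries, so these comparisons are not independent. In MODEL1 the libraries of 7 of the 21 genes lay wholly below CTRL (17.4% of all genes) and those of C3 wholly above (18.5%); in MODEL2 the libraries of 6 lay wholly below (12.4%) and those of 2, C3 and Serpinc1, wholly above (17.5%). With age in weeks as a covariate only Fga kept its call in MODEL1 and 0 of the 2 in MODEL2, while most changes stayed about as large or grew, with wider errors. The groups did not overlap in age, and all MODEL1 mice had the same age. The age slope therefore rests on differences within CTRL and MODEL2 alone, and the part of age was not tested apart from group. With this covariate Fgb was at -1.50 ± 0.52 in MODEL1, Itih4 at -1.96 ± 0.64, Saa4 at -1.12 ± 0.45 and C3 at 0.75 ± 0.38. In MODEL2 Itih4 was at -2.04 ± 0.89 and Ahsg at -0.22 ± 0.64. Without the 3 libraries rich in Rn45s MODEL1 was left with replicate 2 alone, assumed to vary like the other groups. That library had the highest C3 level, 1504 CPM. In MODEL1 Fga was then at -1.25, Fgb at -1.07, Saa4 at -1.15, Itih4 at -1.18 and C3 at 1.23. In MODEL2 Itih4 was then at -1.40 ± 0.51 and Ahsg at -0.84 ± 0.38. The tissue is whole liver, in which fewer cells that make a transcript and less transcript per cell cannot be told apart.

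**Figure D2:**
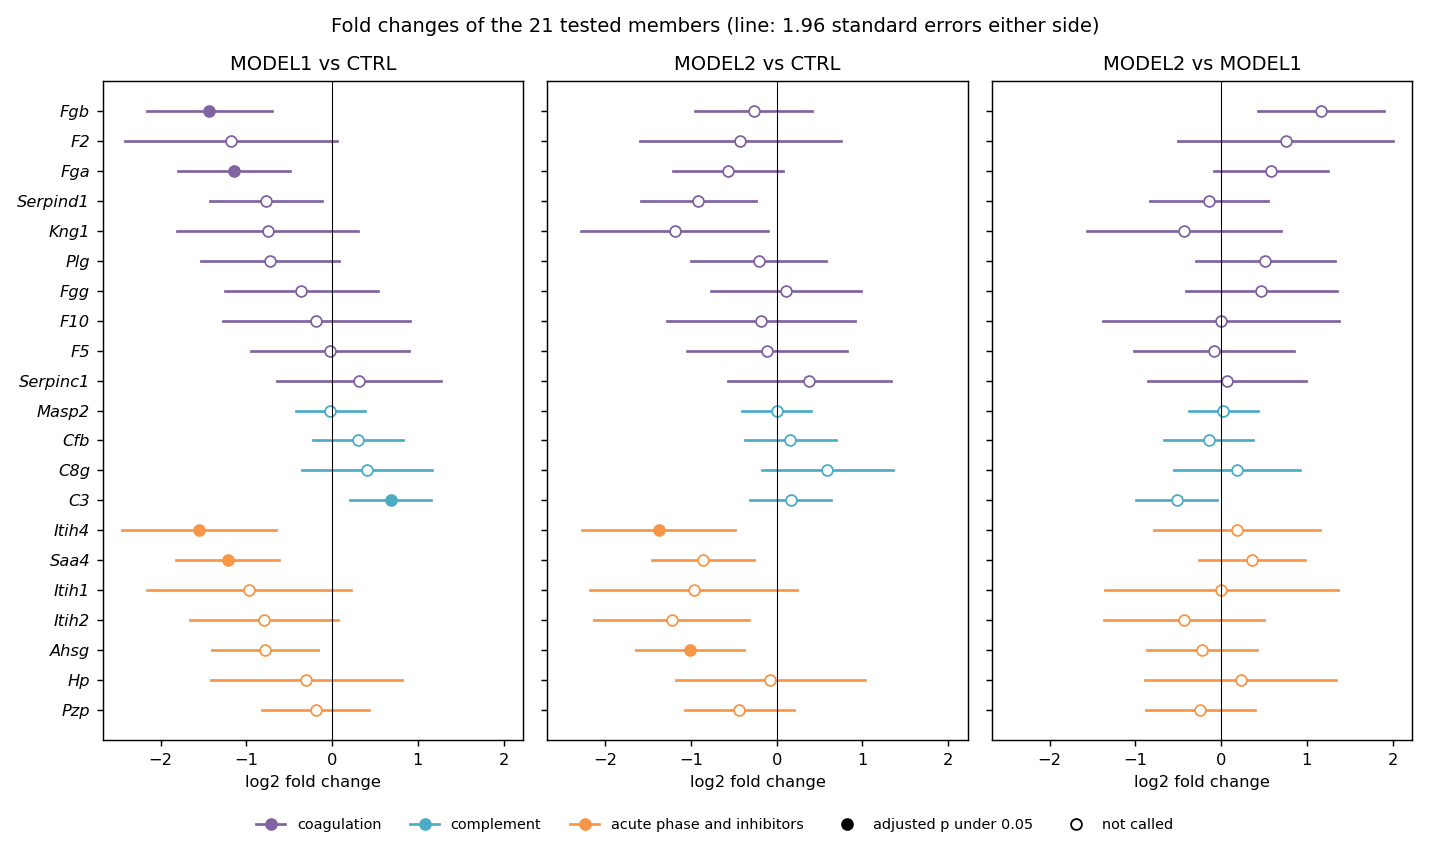
Log2 fold changes of the 21 tested plasma protein genes (horizontal axis) in 3 comparisons, with genes grouped by class on the vertical axis, lines giving an approximate 95% interval and filled points marking an adjusted p under 0.05. Most coagulation and acute phase genes lie left of 0 in MODEL1, whereas the 4 complement genes lie near or right of 0 in both models.

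Fibrinogen is a hexamer of paired alpha, beta and gamma chains, and the 3 genes lie side by side on chromosome 3 (mm10): Fgg at 83007724 to 83015049, Fga at 83026076 to 83033627 and Fgb, on the other strand, at 83040141 to 83049863. Fga, the alpha chain, had 246, 136 and 289 CPM in the CTRL libraries, 75.9, 93.5 and 132 in MODEL1 and 165, 147 and 142 in MODEL2. Every MODEL1 library was below every CTRL library, whereas MODEL2 overlapped CTRL. Fga fell by 1.15 ± 0.33 on the log2 scale (SE) in MODEL1, to 0.451 of CTRL (adjusted p = 0.0143), and was at -0.57 ± 0.32 in MODEL2 (adjusted p = 0.287). Fgb, the beta chain, had 153, 180 and 231 CPM in CTRL, 72.1, 102 and 37.7 in MODEL1, and 176, 182 and 110 in MODEL2. MODEL1 lay below both other groups with no overlap, and MODEL2 overlapped CTRL. Fgb fell by 1.43 ± 0.37 in MODEL1, to 0.37 of CTRL (adjusted p = 0.0065), and was at -0.27 ± 0.35 in MODEL2 (adjusted p = 0.682). Between the models the difference in Fgb was 1.17 ± 0.37, higher in MODEL2 and short of the threshold (adjusted p = 0.0614). With only the 2 groups compared in the fit, or with a 1 CPM filter, this difference passed it (1.16, adjusted p = 0.0462, and 1.25, adjusted p = 0.0430).

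Fgg, the gamma chain, had 80.8, 82.5 and 41.9 CPM in CTRL, 34.2, 72.2 and 53.4 in MODEL1 and 53.7, 73.5 and 93.5 in MODEL2, so that the 3 groups overlapped. Its changes of -0.36 ± 0.45 in MODEL1 (adjusted p = 0.629) and 0.11 ± 0.44 in MODEL2 (adjusted p = 0.916) were not called. The 95% interval for MODEL1, -1.25 to 0.53, includes the alpha chain value of -1.15 but not the beta chain value of -1.43, whose own interval was -2.16 to -0.71. A difference in response between the chains was not tested. Fgg shares 115 exon bases with a long noncoding RNA on the opposite strand. Summed over the 3 chains, the CTRL libraries held 480, 398 and 562 CPM, the MODEL1 libraries 182, 268 and 223, and the MODEL2 libraries 395, 402 and 346. The MODEL1 sum was 0.467 of CTRL, and the MODEL2 sum 0.793. The Fga call was lost without CTRL replicate 3 (-0.94, adjusted p = 0.0684), MODEL1 replicate 1 (-0.99, adjusted p = 0.0634) or MODEL1 replicate 2 (-1.09, adjusted p = 0.0515), and the Fgb call without MODEL1 replicate 3 (-1.11, adjusted p = 0.0540).

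**Figure D3:**
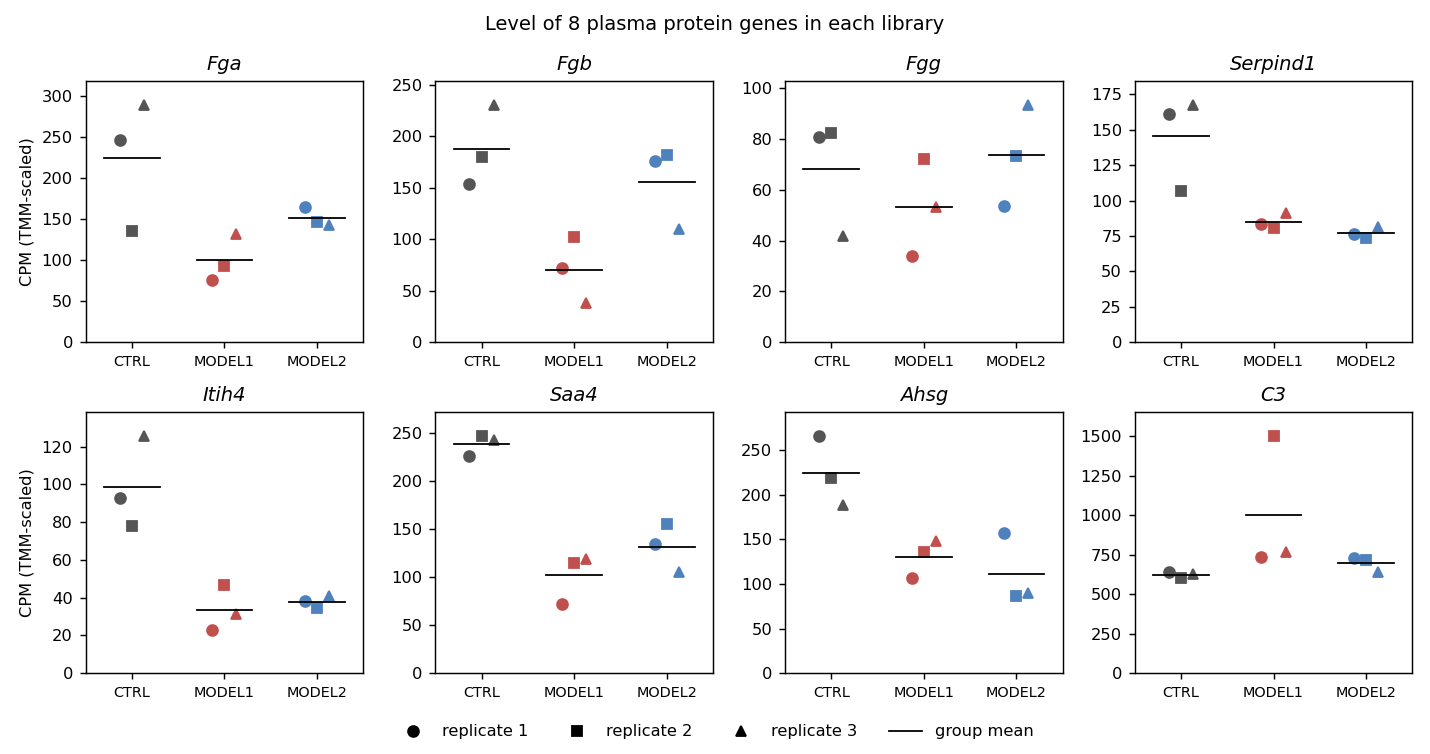
Scaled level (CPM, vertical axis) of 8 plasma protein genes in each of the 9 libraries by group, with the mean of each group as a line and symbols giving the replicate number. In MODEL1, Fga, Fgb, Itih4 and Saa4 lie below all CTRL libraries and C3 lies above them, with MODEL1 replicate 2 at 1504 CPM.

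Among the zymogens and cofactors of the clotting cascade no call was made. F2, prothrombin, the precursor of thrombin, had 60.6, 97.1 and 54.5 CPM in CTRL against 19.0, 68.0 and 9.43 in MODEL1 and 72.9, 17.3 and 65.1 in MODEL2. MODEL1 replicate 2 lay within the CTRL range and the other two libraries of that group far below it. The fold change was -1.18 ± 0.63 (adjusted p = 0.198), and without MODEL1 replicate 2 F2 was called lower (-2.28, adjusted p = 0.0304). F10, which with its cofactor F5 converts prothrombin, was at -0.18 ± 0.56 in MODEL1 and -0.18 ± 0.56 in MODEL2. F5 itself ranged from 49.3 to 195 CPM over the MODEL1 libraries, with a log2 change of -0.03 ± 0.47 there and -0.11 ± 0.48 in MODEL2. Neither gene differed from CTRL by more than its error. F9, the factor missing in haemophilia B, had 4 counts in each CTRL library, 0, 0 and 2 in MODEL1, and 0 in all MODEL2 libraries. Scaled for library size, F9 was 0.141 of CTRL in MODEL1 (exact 95% counting interval 0.0153 to 0.634). In MODEL2 the interval for its 0 counts was 0 to 0.337 of CTRL, and 3 counts over the group would be 0.234 of CTRL. F13b, which carries the fibrin-crosslinking factor XIII in plasma, had 10, 13 and 2 counts in the same order of groups, a ratio of 0.188 to CTRL in MODEL2 (0.02 to 0.88). Proc, protein C, the vitamin K-dependent anticoagulant protease, had 9, 4 and 12 counts in the 3 groups. F7, F11, F12 and Klkb1 had 5 to 33 counts in all, and their intervals included equality in each comparison. Summed over the vitamin K-dependent factors F2, F7, F9, F10 and Proc, MODEL1 read 37.9, 170 and 62.9 CPM against 145, 194 and 130 in CTRL. The MODEL1 sum was 0.577 of CTRL, and MODEL1 replicate 2 lay within the CTRL range.

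The inhibitors and the fibrinolytic genes were likewise not called. Serpind1, heparin cofactor II, a thrombin inhibitor, had 161, 107 and 168 CPM in CTRL, 83.5, 80.7 and 91.1 in MODEL1 and 76.7, 73.5 and 81.3 in MODEL2. All 6 model libraries lay below all 3 CTRL libraries. The changes of -0.77 ± 0.33 and -0.91 ± 0.34 missed the threshold (adjusted p = 0.105 and 0.0839). Serpinc1, antithrombin, was at 0.31 ± 0.49 and 0.38 ± 0.49, and 2942 of its exon bases overlap Zbtb37 on the opposite strand, which had 6 counts in all. Serpinf2, the plasmin inhibitor, had 21, 13 and 11 counts in CTRL, MODEL1 and MODEL2. Plg, plasminogen, the precursor of plasmin, had 92.2 to 121 CPM in CTRL, 41.7 to 93.5 in MODEL1 and 61.4 to 138 in MODEL2, with changes of -0.72 ± 0.41 and -0.21 ± 0.40. Its MODEL1 libraries reached into the CTRL range. Kng1, kininogen, the cofactor of the contact system and precursor of bradykinin, had 88.8, 97.1 and 117 CPM in CTRL, 22.8, 123 and 37.7 in MODEL1, and 76.7, 17.3 and 36.6 in MODEL2. MODEL1 replicate 2 was the highest of all 9 libraries and MODEL2 lay wholly below CTRL. The changes were -0.75 ± 0.54 in MODEL1 (adjusted p = 0.348) and -1.19 ± 0.56 in MODEL2 (adjusted p = 0.179), and without MODEL1 replicate 2 Kng1 was called lower in MODEL1 (-1.70, adjusted p = 0.0466).

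Over all 18 coagulation genes, the CTRL libraries held 1211, 1097 and 1337 CPM, MODEL1 550, 1088 and 603, and MODEL2 924, 821 and 980. All 6 model libraries were below the lowest CTRL library, MODEL1 replicate 2 by little. The MODEL1 sum was 0.615 of CTRL, and the MODEL2 sum was 0.747. The median log2 change of the 10 tested coagulation genes was -0.74 in MODEL1 and -0.24 in MODEL2. MODEL1 replicate 2 held 2.68% of its counts in Rn45s, against 13.4% and 8.62% in the other MODEL1 libraries, and the part of this difference in the results was not tested beyond leaving libraries out.

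**Figure D4:**
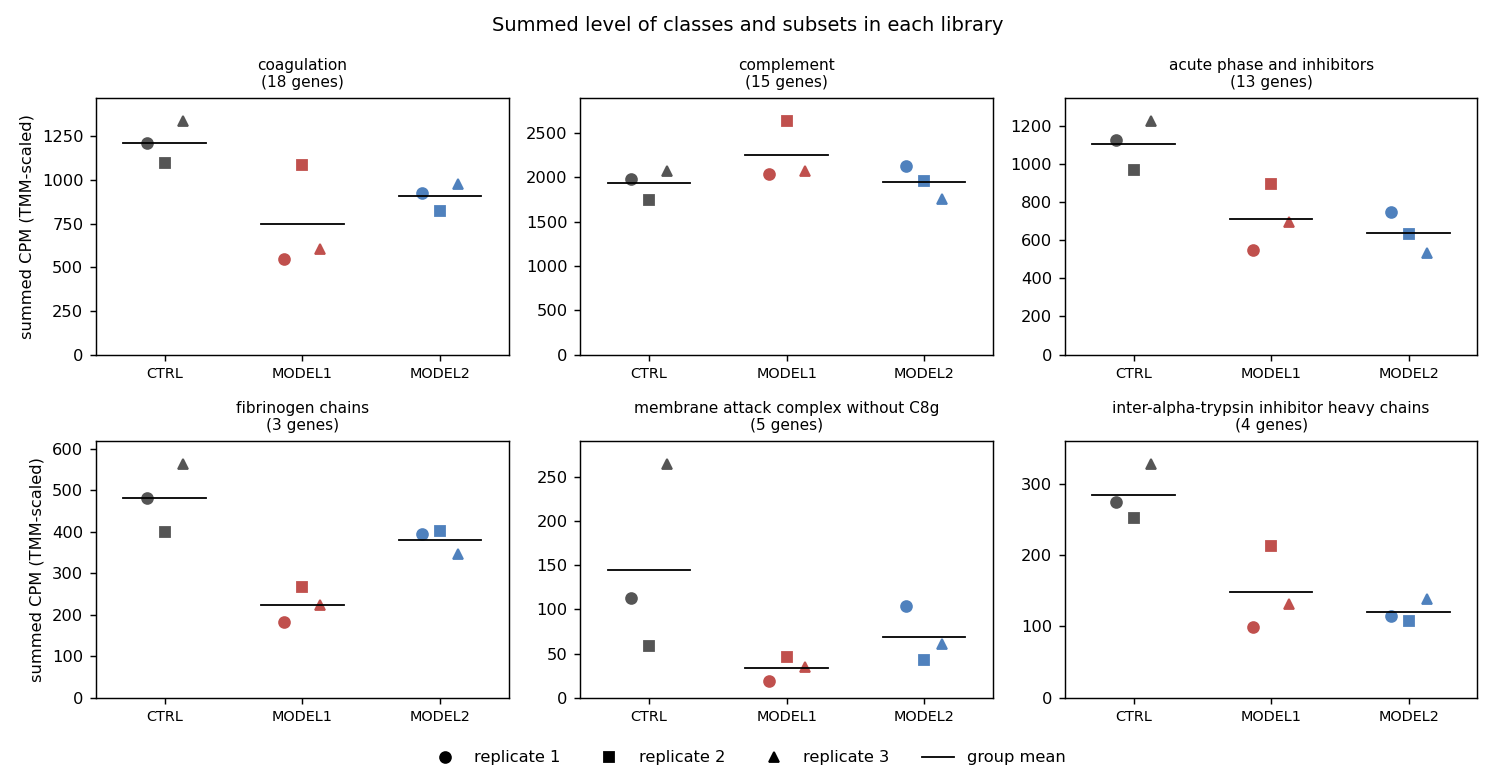
Summed scaled level (CPM, vertical axis) of the 3 classes and of 3 subsets in each library by group, with the group mean as a line and symbols giving the replicate number. The membrane attack complex subset leaves out C8g, which went the other way. The coagulation and acute phase sums are lower in all 6 model libraries than in all CTRL libraries, the complement sum is not, and MODEL1 replicate 2 stands above the other MODEL1 libraries in every class.

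Of the 15 complement genes 4 were tested, and 1, C3, was called, in MODEL1. In each model 9 of the 15 had a summed scaled count below that of CTRL. C3, the protein on which the activation pathways converge, had 638, 602 and 625 CPM in CTRL, 732, 1504 and 770 in MODEL1, and 729, 717 and 642 in MODEL2. All model libraries lay above all CTRL libraries, and MODEL1 replicate 2 stood well above the rest of its group. C3 rose by 0.68 ± 0.24 in MODEL1, 1.61-fold (adjusted p = 0.0433), and was at 0.16 ± 0.24 in MODEL2 (adjusted p = 0.730). The difference between the models, -0.52 ± 0.24, was not called (adjusted p = 0.214). The C3 call was lost without MODEL1 replicate 2 (0.29, adjusted p = 0.395) and without CTRL replicate 1, 2 or 3 (0.68, 0.64 and 0.67, adjusted p = 0.0909, 0.0823 and 0.0884). Macrophages also make C3. The 12 Kupffer cell and macrophage markers summed to 44.4 to 97.1 CPM in CTRL, 104 to 162 in MODEL1 and 46.03 to 65.1 in MODEL2, with none abundant enough to test and Adgre1 at 0 in every library. The part of these cells in the C3 level was not tested.

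Masp2, the serine protease that starts the lectin pathway, had the highest level per kilobase of exon among the 46 genes in every group, at 213, 210 and 214 CPM per kilobase of exon (RPKM) in CTRL, MODEL1 and MODEL2. This rank is uncertain, since 1817 of the 3307 exon bases of Masp2 overlap Tardbp on the other strand, described further on. C3 came second at 121, 195 and 135 RPKM. Masp2 did not differ between groups by more than its error, with changes of -0.02 ± 0.21 in MODEL1 (95% interval -0.42 to 0.38) and 0.00 ± 0.21 in MODEL2 (-0.40 to 0.41). The other lectin pathway genes were sparse: the collectin Mbl2 had 14, 31 and 24 counts in the 3 groups, the collectin Mbl1 15, 9 and 16, and the protease Masp1 12, 5 and 1. The ratio of Masp1 in MODEL2 to CTRL was 0.0781, with a counting interval of 0.00183 to 0.528. Cfb, factor B, the protease of the alternative pathway, had 242, 160 and 264 CPM in CTRL, 250, 297 and 280 in MODEL1, and 276, 268 and 203 in MODEL2. Their ranges overlapped, at 0.31 ± 0.27 and 0.16 ± 0.27. Cfi, factor I, which degrades C3b, had 23, 19 and 8 counts, a ratio to CTRL of 0.326 in MODEL2 (0.126 to 0.755). C4b, the thioester protein of the classical and lectin pathways, had 27, 29 and 15 counts and can share reads with its near-identical paralog C4a. Serping1, the C1 inhibitor, had 22, 26 and 22 counts, an even level.

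The membrane attack complex is built from C5 (Hc), C6, C7, C8 and C9, and its genes did not show 1 direction. C8g, the gamma chain of C8, had 60.6, 87.4 and 67.1 CPM in CTRL, 103, 76.5 and 104 in MODEL1, and 111, 147 and 65.1 in MODEL2, with changes of 0.41 ± 0.39 and 0.59 ± 0.39 that were not called. The alpha and beta chains lie next to each other on chromosome 4, C8b at 104766317 to 104804548 and C8a at 104815679 to 104876398, and both fell under the filter. In CTRL C8a had 8, 8 and 13 counts, in MODEL1 0, 5 and 1, and in MODEL2 6, 4 and 6. Its ratio to CTRL was 0.175 in MODEL1 (0.0595 to 0.43) and 0.517 in MODEL2 (0.262 to 0.985). For C8b the counts were 10, 4 and 29, then 1, 4 and 2, then 6, 0 and 4, with ratios of 0.138 (0.0523 to 0.309) and 0.218 (0.0977 to 0.441). CTRL replicate 3 held most of the CTRL counts of C8b. C9, the subunit that forms the pore, had 2, 0 and 11 counts in CTRL, none in any MODEL1 library and 7, 1 and 2 in MODEL2. In MODEL1 its counting interval was 0 to 0.278 of CTRL, and 3 counts over the group would be 0.195 of CTRL. With no filter edgeR called C8b (-2.77, adjusted p = 0.00752) and C9 (adjusted p = 0.0311) lower in MODEL1. C6 had 14, 8 and 6 counts and Hc 4, 6 and 10; FVB mice carry a null allele of Hc. Over the 5 genes without C8g, the sum was 113, 58.3 and 264 CPM in CTRL, 19.0, 46.7 and 34.6 in MODEL1, and 104, 43.2 and 61.0 in MODEL2. MODEL1 lay below CTRL by a narrow gap, with 5, 11 and 11 raw counts against 28, 12 and 63. The MODEL2 libraries overlapped CTRL. This sum was 0.23 of CTRL in MODEL1 and 0.477 in MODEL2, ratios lowered by leaving out C8g. With C8g, which went the other way, the sum of the 6 genes was 0.589 and 0.816 of CTRL.

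The sum over all 15 complement genes, dominated by C3 and Masp2, was 1979, 1738 and 2071 CPM in CTRL, 2038, 2630 and 2071 in MODEL1 and 2121, 1957 and 1752 in MODEL2. Without C3 and Masp2 it was 0.913 of CTRL in MODEL1 and 0.899 in MODEL2. The median log2 change of the 4 tested genes was 0.36 and 0.16, and 0 of the 4 were called in MODEL2.

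In the acute phase class all 7 tested genes had a log2 change below 0 in both models, with medians of -0.79 in MODEL1 and -0.97 in MODEL2. The serum amyloid A genes lie together on chromosome 7. Saa4, the constitutive member of the family, had 226, 248 and 243 CPM in CTRL, 72.1, 115 and 119 in MODEL1, and 134, 156 and 106 in MODEL2. All 6 model libraries were below CTRL by a wide gap. Saa4 fell by 1.22 ± 0.31 in MODEL1, to 0.429 of CTRL (adjusted p = 0.00526), and its call there held with each library left out in turn, but was lost with age as a covariate (-1.12, adjusted p = 0.129). In MODEL2 it was at -0.86 ± 0.30 and just missed the threshold (adjusted p = 0.0664; 0.04996 with only the 2 groups in the fit). Saa1 and Saa2, the members induced strongly in the acute phase, had 0 and 5 counts over all libraries. Paralogs of this family can share reads, so their separate levels are uncertain.

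The inter-alpha-trypsin inhibitor heavy chains bind hyaluronan, and Itih1, Itih3 and Itih4 lie together on chromosome 14. Itih4, the heavy chain that circulates without the bikunin light chain, had 92.9, 77.7 and 126 CPM in CTRL, 22.8, 46.7 and 31.4 in MODEL1, and 38.4, 34.6 and 40.7 in MODEL2. Its model libraries all lay below CTRL, and it was the only member called in both models. Itih4 fell by 1.56 ± 0.46 in MODEL1 (to 0.34 of CTRL, adjusted p = 0.0153) and by 1.37 ± 0.45 in MODEL2 (to 0.386, adjusted p = 0.0483). In MODEL1 the call was lost without CTRL replicate 3 (-1.37, adjusted p = 0.0700), MODEL1 replicate 1 (-1.36, adjusted p = 0.0608) or MODEL1 replicate 3 (-1.51, adjusted p = 0.0576). In MODEL2 it was lost with DESeq2 (adjusted p = 0.0545) and without CTRL replicate 1 or 3 or any 1 MODEL2 library, at -1.16 to -1.42. Itih2 had 109, 92.2 and 122 CPM in CTRL, 26.6, 102 and 59.7 in MODEL1, and 57.5, 34.6 and 44.7 in MODEL2. Only MODEL2 was separate from CTRL, at -1.23 ± 0.46 (adjusted p = 0.0854), against -0.79 ± 0.44 in MODEL1. Itih1 was at -0.97 ± 0.61 and -0.97 ± 0.62 on 68 counts in all, and Itih3 had 22, 22 and 10 counts. Over the 4 heavy chains the CTRL libraries held 275, 252 and 327 CPM, MODEL1 98.7, 213 and 132, and MODEL2 115, 108 and 138, or 0.519 and 0.423 of CTRL.

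Ahsg, fetuin-A, an inhibitor of mineralisation and a negative acute phase protein, had 267, 218 and 189 CPM in CTRL, 106, 136 and 148 in MODEL1, and 157, 86.4 and 89.4 in MODEL2. All 6 model libraries lay below all CTRL libraries. Ahsg fell by 1.01 ± 0.32 in MODEL2, to 0.497 of CTRL (adjusted p = 0.0408), and was at -0.78 ± 0.32 in MODEL1 (adjusted p = 0.0805). The call was lost without CTRL replicate 1 (-0.86, adjusted p = 0.174), CTRL replicate 2 (-1.04, adjusted p = 0.0577), MODEL2 replicate 2 (-0.87, adjusted p = 0.164) or MODEL2 replicate 3 (-0.87, adjusted p = 0.165), and with the replicate block (adjusted p = 0.0576). With age as a covariate it was at -0.22. Pzp, an alpha-2-macroglobulin type protease inhibitor, had 118 to 356 CPM over the 9 libraries, with changes of -0.19 ± 0.32 and -0.44 ± 0.32. Hp, haptoglobin, which binds free haemoglobin, had 19.0 to 71.3 CPM, at -0.30 ± 0.57 and -0.08 ± 0.56. Neither was called, and their groups overlapped. The hemopexin gene Hpx, whose product binds haem, had 24, 32 and 13 counts in the 3 groups. Orm1, an acid glycoprotein, had 2, 7 and 4 counts, and Apcs, serum amyloid P, 2 in each group. The 13 genes of the class summed to 1127, 971 and 1224 CPM in CTRL, 546, 897 and 695 in MODEL1, and 748, 635 and 533 in MODEL2. These sums were 0.644 and 0.577 of CTRL, and no model library reached the CTRL range.

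Over the 25 untested genes, of which 24 had counts, the counting interval of the ratio to CTRL lay below 1 in 4 genes in MODEL1 (F9, C8a, C8b and C9) and in 7 in MODEL2 (F9, F13b, C8a, C8b, Cfi, Masp1 and Itih3), and above 1 in 0. All these genes had at least 10 counts in the 2 groups compared, as did 19 untested members in MODEL1 and 20 in MODEL2. Of all genes under the filter with as many counts, the interval lay below 1 in 10% (MODEL1) and 13.5% (MODEL2), and above 1 in 14.9% and 5.79%. Between the models it lay below 1 for F13b and Hpx and above 1 for Proc, C8a and C9, of 18 members with as many counts, against 14.3% and 4.49% of all such genes. These intervals cover counting error only, not the spread between mice, and are not adjusted for the number of genes.

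Of the 8 genes that share exon bases with a gene on the opposite strand, 6 have that partner in the table. Partner counts far exceeded those of the plasma protein gene at 4 of the 6 loci. At Ahsg (chromosome 16, 22891277 to 22899449, plus strand) the antisense gene Gm30505 had 79891, 33083 and 51416 counts in the 3 groups (CTRL, MODEL1, MODEL2), against 156, 107 and 83 for Ahsg, 475 times as many in all. Ahsg and Gm30505 share only 62 exon bases in the annotation. Gm30505 fell by 1.50 ± 0.17 in MODEL1 (adjusted p = 1.03e-06) and by 0.73 ± 0.17 in MODEL2 (adjusted p = 0.00553). At Pzp, Gm10069 had 263 times the counts and fell by 1.15 ± 0.18 in MODEL1 (adjusted p = 3.56e-05), where Pzp was at -0.19. At Masp2, Tardbp, which encodes the RNA-binding protein TDP-43, had 9.73 times the counts and fell by 1.05 ± 0.18 in MODEL1 (adjusted p = 0.00014), where Masp2 was at -0.02. At F5, Gm16548 had 58.9 times the counts and was at -0.17 ± 0.17. Plg and Slc22a3 had similar counts and Zbtb37 few. Since counting by strand is not stated, reads of the 2 genes of such a locus cannot be told apart, and the levels of Ahsg, Pzp, Masp2 and F5 are uncertain. Levels of genes without such a partner may be no more certain. Fga, Fgb, Saa4, Itih4 and C3 share no exon base with an annotated opposite-strand gene, which does not show on which strand their own reads were counted. With symbols that do so left out, the 4 lower calls in MODEL1 remained (-1.05 to -1.48), and C3 was at 0.74 (adjusted p = 0.0628).

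**Figure D5:**
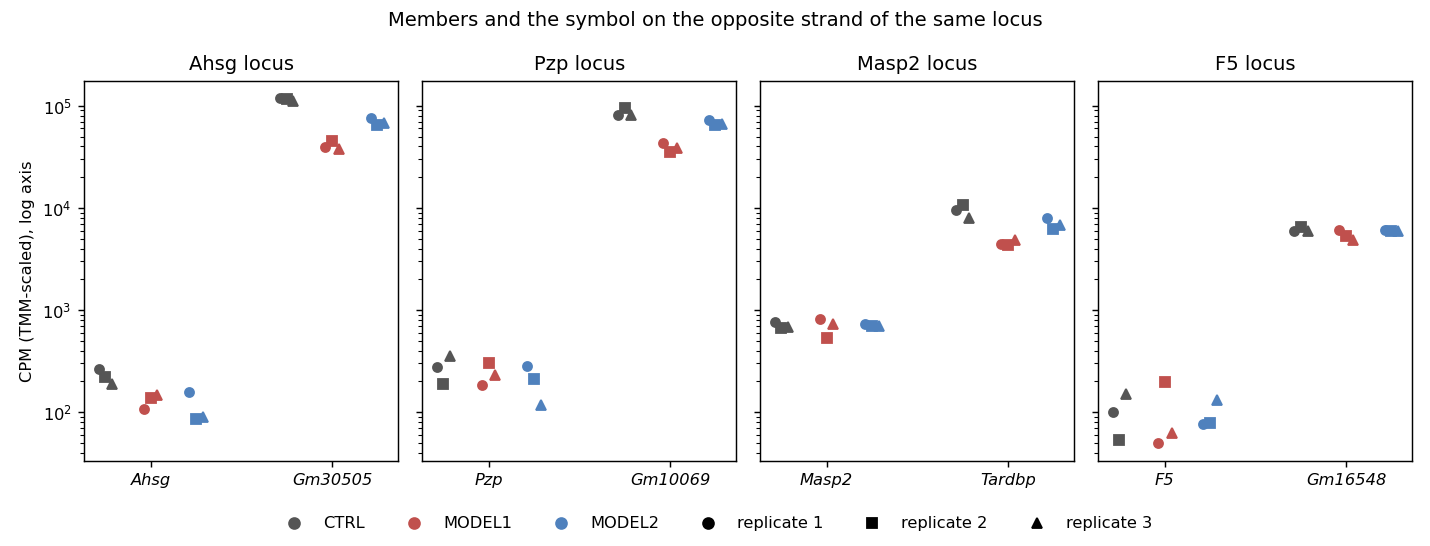
Scaled level (CPM, logarithmic vertical axis) of 4 plasma protein genes and of the symbol on the opposite strand of the same locus, in each library, with colours giving the group and symbols the replicate number. The opposite-strand symbol lies above the plasma protein gene at each locus and is lowest in MODEL1 at the Ahsg, Pzp and Masp2 loci.

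Related genes outside the list gave further values. Of 30 other acute phase proteins and protease inhibitors 10 were tested, and in MODEL1 5 were called lower and 0 higher, against 11% and 11.9% of all genes tested. These were Hamp, the iron hormone hepcidin (-3.15 ± 0.74), the antitrypsin gene Serpina1b (-3.16 ± 0.73), the antichymotrypsin-type genes Serpina3m (-2.48 ± 0.67) and Serpina3k (-1.55 ± 0.41), and the murinoglobulin Mug1 (-1.97 ± 0.52). In MODEL2 0 of the 10 were called (4.96% of all genes lower, 8.3% higher), with 3 at an unadjusted p under 0.05, and between the models Serpina1b was higher in MODEL2 (2.54 ± 0.76, adjusted p = 0.0434). The Serpina1, Serpina3 and murinoglobulin families hold near-identical copies that can share reads. Of 28 other coagulation genes 6 were tested and 0 were called against CTRL by edgeR (1 at an unadjusted p under 0.05 in MODEL1 and 0 in MODEL2), while Cpb2, the fibrinolysis inhibitor TAFI, was lower in MODEL2 than in MODEL1 (-1.83 ± 0.53, adjusted p = 0.0388). Of 30 other complement genes 3 were tested, and C4a was called higher in MODEL1 (1.76 ± 0.37, adjusted p = 0.00107), with the reservation on C4b. Of 24 genes of acute phase cytokine signalling 3 were tested, and Cebpb, which encodes the transcription factor C/EBP beta, was called lower in MODEL1 (-1.21 ± 0.43, adjusted p = 0.0470) and MODEL2 (-1.64 ± 0.45, adjusted p = 0.0173). Cebpb shares exon bases with an opposite-strand gene. Of 13 hepatocyte transcription factors 5 were tested. Onecut1, which encodes HNF6, was lower in MODEL1 (-4.16 ± 0.77, adjusted p = 0.000334) and higher in MODEL2 than in MODEL1 (3.60 ± 0.79, adjusted p = 0.00719), and Prox1 was lower in MODEL1 (-1.33 ± 0.45, adjusted p = 0.0362).

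Of the 11 hepatocyte markers, none of them in the list, 8 were tested. In MODEL1 3 were called lower and 1 higher, with 5 of the 8 below 0. Over all genes tested 11% were called lower, 11.9% higher and 50% lay below 0. In MODEL2 2 were called lower and 0 higher, with 6 of the 8 below 0, against 4.96%, 8.3% and 49.9% of all genes. The marker sum, like the coagulation and acute phase sums, was lower in every model library than in every CTRL library: 3544 to 3933 CPM in CTRL, 2235 to 3348 in MODEL1 and 2247 to 3222 in MODEL2. Alb, albumin, was called lower in both models (-0.99 ± 0.24 and -0.85 ± 0.24), as was Apoa1, the main protein of high-density lipoprotein (-1.27 ± 0.22 and -1.28 ± 0.22). Ttr, transthyretin, was at -0.98 ± 0.39 and -0.15 ± 0.38 and was not called. In MODEL1 Cyp3a11 was called lower (-1.99 ± 0.59) and Apob higher (0.91 ± 0.22). The apolipoprotein gene Apoa2 (0.33 ± 0.32 and 0.69 ± 0.32), the cytochrome P450 gene Cyp2e1 (0.04 ± 0.33 and -0.51 ± 0.34) and the transferrin gene Trf (-0.59 ± 0.29 and -0.20 ± 0.28), named after their values were seen, were not called, with Apoa2 at an unadjusted p of 0.0434 in MODEL2. Among the other cell types, 2 of 10 endothelial markers were tested. In MODEL1 Eng was called lower (-0.95 ± 0.28, adjusted p = 0.0164) and Stab1 was not called (-0.39 ± 0.46). Only 4 of the 9 endothelial markers with counts had a summed scaled count below CTRL in MODEL1. Neutrophil, T and NK cell, B cell and cholangiocyte markers summed to 0 to 12.8 CPM in every library. Cholangiocyte markers had 0 in every CTRL library, 11.4, 12.8 and 12.6 CPM in MODEL1 and 0, 4.32 and 0 in MODEL2. The MODEL1 values rest on 3, 3 and 4 counts, and Sox9 alone held 8 of these. Relative to CTRL, in MODEL1 and MODEL2, stellate cell and fibroblast markers summed to 1.04 and 0.247 and platelet markers to 0.615 and 0.579. Endothelial markers summed to 0.63 and 0.811 and erythroid markers to 1.17 and 0.711. The part of cell composition in the results was not tested.

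Among the 2618 other genes tested, those whose level followed the summed CPM of the 21 tested plasma protein genes most closely over the 9 libraries were Irf2bpl (Pearson r = 0.907), Slc38a2 (0.888), Ppp1r9a (0.857), Wnk1 (0.842) and Cyp2e1 (0.839). These values describe 9 libraries that fall into 3 groups and share depth and composition.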

How the data were processed

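The table deposited by the authors holds raw counts per gene symbol for 9 liver libraries. The submitters' processing notes name HTSeq 0.11.2, HISAT2 2.1.0, Trimmomatic 0.38 and the mm10 build; the annotation and strand setting are not given in the sources used here. Tests used edgeR 4.0.16 under R 4.3.3 (limma 3.58.1): genes were kept by filterByExpr with a minimum count of 10 (2639 genes), scaled by TMM, fitted with 1 coefficient per group over all 9 libraries by quasi-likelihood, and adjusted by Benjamini-Hochberg over all genes, with a threshold of 0.05. The labels list separate mice, and p-values measure the spread between these libraries. Standard errors (SE) are the absolute log2 fold change divided by the square root of F. The 95% intervals of fold changes apply a normal quantile to them, so they are approximate and somewhat narrower than the F test implies. CPM are counts divided by the scaled library size, and RPKM divides them by exon length. Untested genes have exact conditional 95% intervals of the scaled count ratio, for counting error only. Strand overlaps come from GENCODE annotation on mm10. DESeq2 1.42.0, other scalings and filters, an age covariate, a replicate block and fits without single libraries were alternatives. Replicate numbers did not pair samples (correlations of deviations -0.121 to 0.01), and library pairs within groups differed beyond sampling noise (chi-square per degree of freedom 2.98 to 16.0). The members and lists were chosen with earlier results of these data known. Every tested member was named; of the related lists the called genes, of the markers Alb, Apoa1, Ttr and the called ones (other tested hepatocyte markers were added later), and the 5 genes of most similar pattern.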

Additional observations from a re-analysis of the deposited data

Results flagged for a closer look

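6 genes outside the list were singled out because the test of the difference between MODEL2 and MODEL1 itself passed the threshold. The log2 difference, MODEL2 minus MODEL1, was 0.77 for Gm30505 (adjusted p = 0.00835), 0.80 for Gm10069 (adjusted p = 0.00664) and 0.61 for Tardbp (adjusted p = 0.0387), the opposite-strand symbols of Ahsg, Pzp and Masp2. At the same loci Ahsg was at -0.22, Pzp at -0.24 and Masp2 at 0.02, none of them called.

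Onecut1 differed by 3.60, Serpina1b by 2.54 and Cpb2 by -1.83. Onecut1 had a mean of 6.78 CPM in MODEL1 against 80.2 in MODEL2 and 119 in CTRL, so that MODEL1 stood apart. Serpina1b had 5.98 CPM in MODEL1 against 37.5 in MODEL2 and 58.8 in CTRL. Cpb2 had 88.8 CPM in MODEL1 against 24.8 in MODEL2 and 44.0 in CTRL. The difference lost its call under 12 alternatives for Serpina1b, 11 for Cpb2, 9 for Tardbp, 2 for Onecut1 and 1 for Gm30505, fits without single libraries included.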

How the results depend on the processing

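At 219504 to 325177 counts a library, 25 of the 46 plasma protein genes could not be tested. No called value of a member or related gene changed sign under any alternative run; of 1283 alternative values of results not called, 102 did. In MODEL1 the 4 lower member calls became 1 when age was a covariate, and 0 when the 3 libraries rich in Rn45s were left out (which leaves MODEL1 with 1 library, assumed to vary like the other groups), although the lost ones stayed at -1.07 to -1.96 with wider errors, and 2 to 5 without single replicates. The 1 higher call, C3, became 0 with no filter, a 1 CPM filter, only the 2 groups compared, age, the replicate block or without opposite-strand symbols, and was 0 to 1 without single replicates. Without the libraries rich in Rn45s C3 was at 1.23, a value that rests on MODEL1 replicate 2 alone. In MODEL2 the 2 lower calls became 1 with DESeq2, 0 with no filter, a 1 CPM filter, age, the replicate block, without opposite-strand symbols or without the libraries rich in Rn45s, and 0 to 1 without single replicates. Between the models the 0 higher calls became 1 (Fgb) with a 1 CPM filter or only the 2 groups compared.

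Over all genes, the 602 calls in MODEL1 became 299 with age, 253 without opposite-strand symbols (999 genes tested), 299 without the libraries rich in Rn45s and 497 to 602 without single replicates. The 350 calls in MODEL2 became 71, 130, 210 and 221 to 379 in the same order. The 192 calls between the models became 101, 60, 62 and 85 to 142. The replicate block gave 543, 290 and 125 calls. The causes were not tested.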
